A study of Rattus norvegicus with 8 samples.

Results

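Leptin and fractalkine are the 2 signalling proteins that the title of the series names. Genes listed under these names were looked up in RNA sequencing of burned and unburned rat paw skin. The pair was taken by Ensembl rat gene identifier, ENSRNOG00000005924, listed as Lep, and ENSRNOG00000016326, listed as Cx3cl1. Both identifiers were found among the 26404 rows of the count table, and both were among the 14240 genes that passed the default expression filter. The names come from the gene list drawn up for this description. The count table gives no gene names, and 0 of the 47357 entries of the reference gene table carry an Ensembl rat identifier, so neither name could be checked and both genes are given by identifier. The name Lep is in doubt for ENSRNOG00000005924, and its values are not reported as leptin values.

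Leptin is a hormone made chiefly by fat cells. It acts through the leptin receptor, which signals by JAK2 and STAT3, and is best known for the control of appetite and energy use, with further effects on immune cells and wound repair. Fractalkine is a chemokine that is made as a membrane protein, on endothelial cells, epithelial cells and neurons among others. Proteases of the ADAM family can cut it free, and its receptor CX3CR1 is carried by monocytes, macrophages and microglia. These accounts are background on the named proteins and not results of these data. The receptors, proteases and signalling genes listed for both pathways, and the markers of fat, endothelium, keratinocytes, macrophages, neutrophils, muscle and fibroblasts, carry symbols only and were not analysed here. The labelled tissue could therefore not be checked against its markers.

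The animals were Sprague-Dawley rats of 125 to 200 g under urethane anaesthesia, and every library came from such an animal. In the burn group 1 hind paw had been dipped for 2 min into saline at 60 °C, a procedure that models a burn that reaches deep into the dermis. Its opposite, held in saline at room temperature, gave the control group, so controls came from animals that were themselves burned on the other paw. Skin of the dorsal hind paw was cut out where microdialysis probes had lain, and polyadenylated RNA was sequenced in 4 burn and 4 control libraries. How long after the burn the skin was taken is not stated in the material used here. No label ties a paw to an animal or says whether 1 group's libraries stem from separate rats, so the p-values speak only of the spread over these 8 samples.

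Libraries held 13693811 to 26837925 counts. Burn replicate 3 stood apart from the rest, with counts at only 15354 genes where the other 7 libraries had them at 17322 to 17547. It also had the highest normalisation factor (TMM, trimmed mean of M values), 1.20 in a range of 0.807 to 1.20. The factors of burn replicates 1, 2 and 4 were 0.843, 0.807 and 0.894, below those of all control libraries, 1.05 to 1.14. A lower factor gives a higher CPM. Values below are CPM, a gene's counts over the library's total, brought to a common total and scaled with these factors unless library size is named.

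Neither gene passed the test between burned and control skin. ENSRNOG00000005924, for which the name Lep is in doubt, was fitted 25.5% below control. ENSRNOG00000016326, listed as Cx3cl1, was fitted 13.2% below control. Each had burn libraries on both sides of the control mean. Over all genes tested, 11.9% were called higher and 10.0% lower in burned skin, 21.9% in all (edgeR quasi-likelihood test, adjusted p under 0.05), and 0 of these 2 genes were among them. At an unadjusted p under 0.05 the count was also 0 of 2, by edgeR, by DESeq2 and by limma-voom with or without sample weights. The share of all genes under that unadjusted threshold was not counted, so this count has no background to be read against. Ordered by edgeR p, smallest first, ENSRNOG00000005924 ranked 6434 and ENSRNOG00000016326 ranked 10215 among the 14240 genes tested. A fall in a piece of tissue can mean fewer cells that make the RNA or less RNA per cell, and these cannot be told apart here.

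ENSRNOG00000005924 was counted 11173, 8196, 11425 and 11017 times in burn replicates 1 to 4. The control libraries, in the same order, had 24326, 29873, 17806 and 24087 counts. With TMM scaling this came to 971, 543, 599.7 and 663 CPM in burn and 948, 1035, 880 and 862 CPM in control. Burn replicates 2, 3 and 4 lay below every control library, and burn replicate 1 lay inside the control range, above the control mean. The share of all genes with as many burn libraries below every control was not counted. Against the control mean these 4 burn libraries stood at 104%, 58.3%, 64.4% and 71.2%.

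On the log2 CPM scale the mean of this gene was 9.40 ± 0.37 in burn and 9.86 ± 0.12 in control (SD, n = 4). The fitted log2 fold change, burn over control, was -0.42 (SE 0.22, edgeR quasi-likelihood adjusted p = 0.194). Its 95% interval ran from -0.92 to 0.08, which spans a fall to 0.527 of control and a rise to 1.05 of control. A two-sided exact permutation test of the log2 CPM values gave p = 0.114, where 8 libraries allow no value below 0.0286. Without burn replicate 1 the log2 fold change was -0.63 (SE 0.19, edgeR adjusted p = 0.0635), still short of the threshold. That was the largest fall among the refits that each left out 1 library. The other such refits gave -0.46 to -0.33 (edgeR adjusted p = 0.231 to 0.352).

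The separation of the groups at this gene moved with the scaling. By library size alone the values were 816, 437, 718 and 592 CPM in burn and 1012, 1113, 999 and 901 CPM in control. All 4 burn libraries were then below all 4 control libraries (exact permutation test, two-sided, p = 0.0286, which is the lowest value possible here). At that scaling 21.6% of all genes tested had every burn library below every control library. With TMM the share was 15.6%, and this gene was not among those genes. The log2 fold change by library size was -0.65 (SE 0.24, edgeR adjusted p = 0.0862), but the median over all genes tested had moved as well, from 0.06 to -0.15. Relative to that median the gene stood at -0.49 with TMM and -0.50 with library size alone.

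The abundance of ENSRNOG00000005924 bears on its name. It took 0.0901% to 0.111% of all counts in each control library and ranked 66 to 78 among all rows by count there, and 79 to 158 in the burn libraries. These ranks are not corrected for transcript length, since no lengths of the build used were at hand. Leptin is a product of fat cells, and a place this high in whole skin raised doubt about the name Lep. No reference level of leptin in skin was at hand to settle it. The name was therefore not carried over to this row, and its values are not reported as leptin values.

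**Figure D1:**
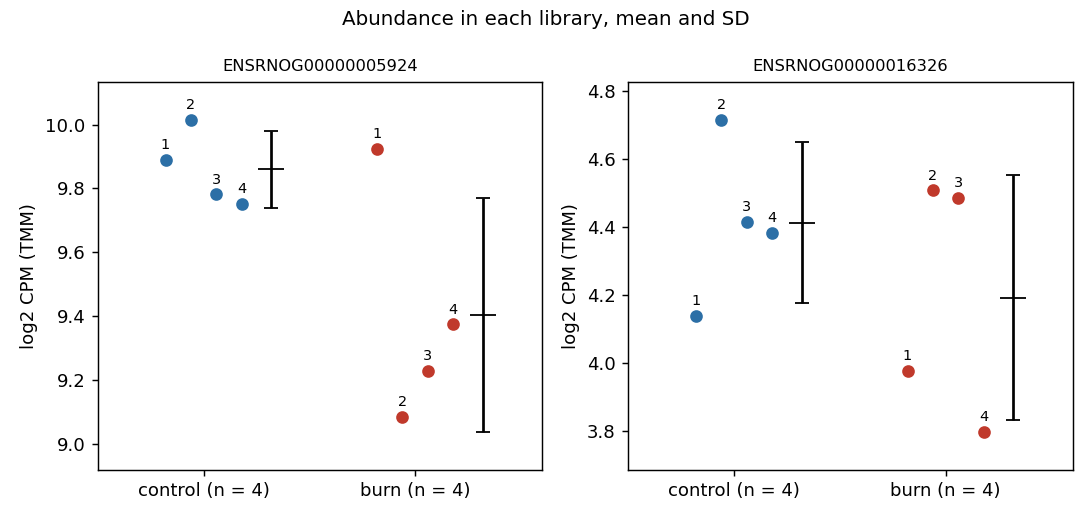
Abundance of both genes in log2 CPM with TMM scaling, 1 point per library with its replicate number, blue for control and red for burn, with a bar beside them for the mean and SD of the group (n = 4). At left burn replicate 1 lies among the controls and the other 3 burn libraries below them. At right burn replicates 2 and 3 lie inside the control range and burn replicates 1 and 4 below it.

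ENSRNOG00000016326 was counted far less deeply, with 180, 342, 425 and 229 counts in burn replicates 1 to 4. Control libraries 1 to 4 had 449, 756, 430 and 580. The fewest, 180 counts, carry an exact Poisson 95% interval of 155 to 208. With TMM scaling the values were 15.6, 22.7, 22.3 and 13.8 CPM in burn and 17.5, 26.2, 21.2 and 20.8 CPM in control. Burn replicates 1 and 4 lay below every control library, and burn replicates 2 and 3 lay within the control range at 106% and 104% of the control mean.

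The mean log2 CPM of this gene was 4.19 ± 0.36 in burn and 4.41 ± 0.24 in control (SD, n = 4). The fitted log2 fold change was -0.20 (SE 0.22, edgeR quasi-likelihood adjusted p = 0.542), less than its standard error. The 95% interval from -0.71 to 0.30 spans a fall to 0.611 of control and a rise to 1.24 of control, so the test does not show that the level was equal. A two-sided exact permutation test gave p = 0.343. By library size alone 3 of 4 burn libraries lay below every control (two-sided exact permutation test, p = 0.171). At that scaling the median log2 fold change over all genes tested was -0.15, and the share of genes with such a count was not determined. The estimate was sensitive to single libraries, at -0.09 without burn replicate 4, -0.10 without control replicate 2, -0.13 without burn replicate 1, -0.32 without burn replicate 2 and -0.31 without burn replicate 3, and in none of these refits did it pass the threshold (edgeR adjusted p = 0.328 to 0.812).

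**Figure D2:**
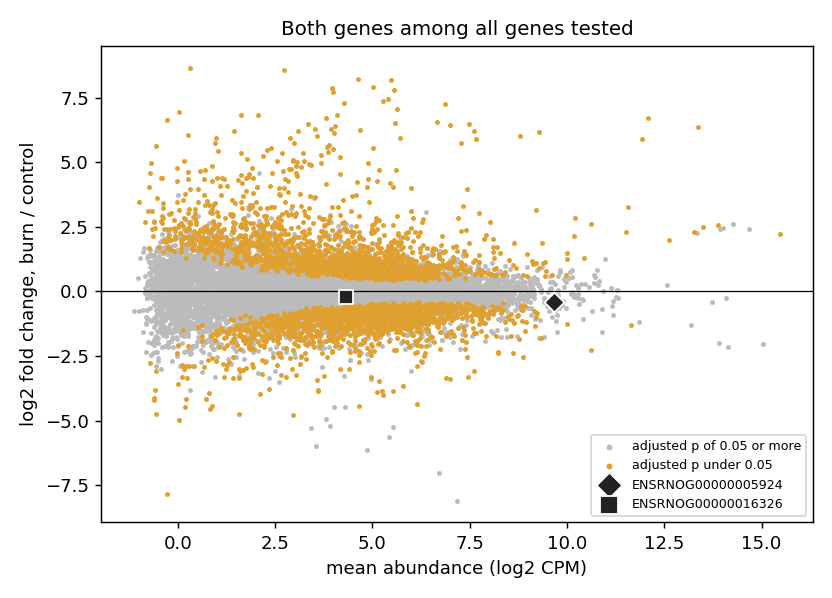
The log2 fold change of each of the 14240 genes tested, burn over control, against mean abundance in log2 CPM, orange for genes with an adjusted p under 0.05 and grey for the rest. The diamond is ENSRNOG00000005924 at -0.42 and the square ENSRNOG00000016326 at -0.20, and both lie in the grey band near 0.

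Both genes varied more among burned than among control paws, and so did the median gene. The SD of log2 CPM was 0.37 in burn and 0.12 in control for ENSRNOG00000005924, and 0.36 and 0.24 for ENSRNOG00000016326. For the median gene these were 0.52 and 0.25. Among burn libraries 32.9% of genes varied less than the first gene and 32.1% less than the second, and among control libraries the shares were 15.0% and 46.4%. Both genes therefore had a smaller SD than the median gene within each group, the second gene in control only slightly. Genes of like abundance were not compared separately, so steadiness beyond that of such genes is not shown.

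Among the burn libraries the 2 genes did not follow one another. Burn replicate 1 had the highest burn value of ENSRNOG00000005924 and the second lowest of ENSRNOG00000016326, while burn replicate 2 had the lowest value of the first gene and the highest of the second. In control, replicate 2 had the highest value of both genes. Control replicate 1 had the lowest control value of ENSRNOG00000016326 and lay above the control mean of ENSRNOG00000005924. The ratio of the 2 genes within a library hardly depends on scaling, which enters only through the prior count. Thinning every library to the depth of the shallowest moved its difference between burn and control from -0.24 to -0.25. Its absolute size is not per transcript length, so it is read only as a difference between groups. The log2 ratio of the first gene to the second was 5.95, 4.58, 4.74 and 5.58 in burn replicates 1 to 4, and the control libraries had 5.75, 5.30, 5.37 and 5.37. Burn replicate 1 lay above the control range, burn replicates 2 and 3 below it and burn replicate 4 inside it. The group means were 5.21 ± 0.66 and 5.45 ± 0.21 (SD, n = 4), and their difference of -0.24 was within the spread between libraries (two-sided exact permutation test, p = 0.514). The changes of the 2 genes were therefore not shown to differ, nor shown to be the same.

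**Figure D3:**
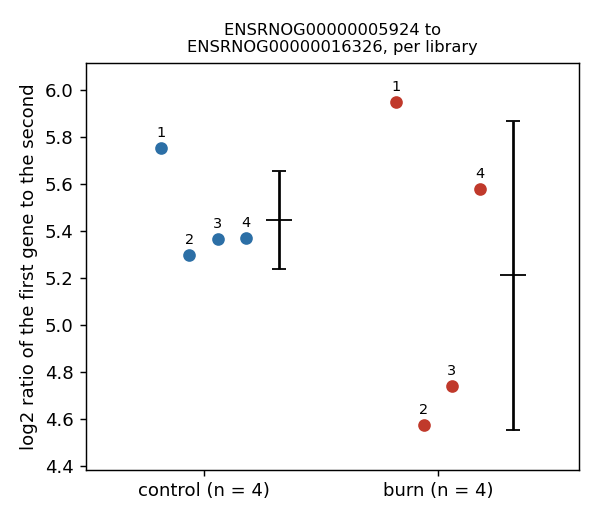
The log2 ratio of ENSRNOG00000005924 to ENSRNOG00000016326 in each library, 1 point per library with its replicate number, with the group mean and SD (n = 4). The control libraries lie between 5.30 and 5.75, and the burn libraries spread from 4.58 to 5.95.

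The gene most like each of the pair was sought over all genes tested, as the smallest root mean square difference between log2 CPM profiles over the 8 libraries after each gene was centred on its own mean. The nearest distance is under the median by construction. The profiles include the difference between burn and control, so a similar change in the nearest gene is partly selected for. For ENSRNOG00000005924 it was ENSRNOG00000004245, at 0.11 log2 units, where the median over all other genes was 0.62. That gene fell, from a control mean of 5.50 ± 0.11 to a burn mean of 4.91 ± 0.28 on the log2 CPM scale (SD, n = 4). Its fitted log2 fold change was -0.58 with an SE of 0.18 (edgeR adjusted p = 0.0454). The next nearest profile, almost as close at 0.12 log2 units, did not pass the test and had a log2 fold change of -0.27 (edgeR adjusted p = 0.405). For ENSRNOG00000016326 it was ENSRNOG00000023781, at 0.12 log2 units against a median of 0.60. This gene did not pass the test, its fitted log2 fold change being -0.24 with an SE of 0.24 (edgeR adjusted p = 0.4999), and neither did the next nearest, at 0.13 log2 units and -0.29 (edgeR adjusted p = 0.360). The pair themselves were 0.44 log2 units apart, and 3372 genes lay closer to ENSRNOG00000005924 than ENSRNOG00000016326 did. The products of the 2 neighbouring profiles are not named by the files.

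**Figure D4:**
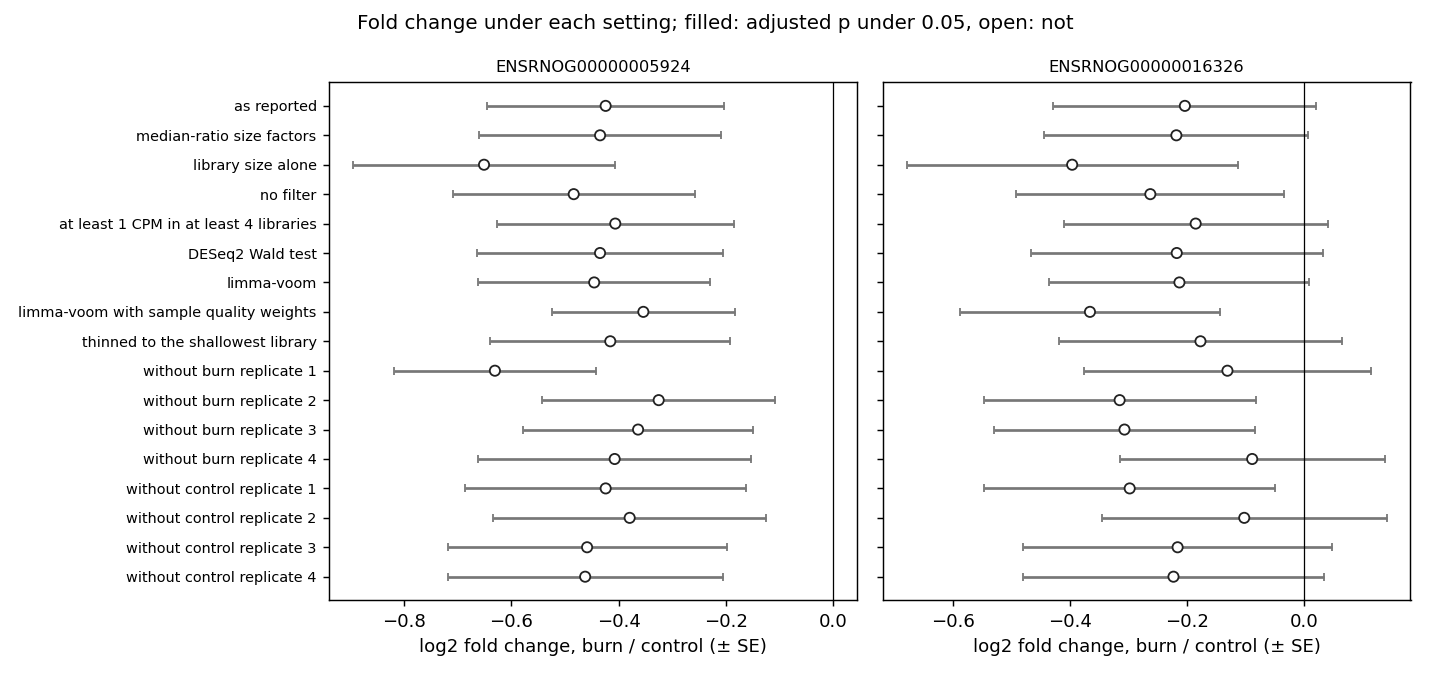
The log2 fold change, burn over control, with its SE, for each gene as reported and under 16 other settings of normalisation, filter, tool, depth and libraries. All points are open, for an adjusted p of 0.05 or more, and all lie below 0, from -0.65 to -0.33 for ENSRNOG00000005924 and from -0.40 to -0.09 for ENSRNOG00000016326.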

How the data were processed

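The authors deposited raw read counts, whole numbers for each Ensembl rat gene, in 1 column for each library. Per the submitters' processing notes, TopHat2 2.0.9, HTSeq 0.5.4p3, edgeR, R 3.0.1, limma and the build Rnor_5.0 were named; what each did, the annotation release and the strand setting are not stated in the material used here. Groups came from the treatment label, and replicate numbers follow accession order and pair nothing. The pair of genes, the test and the alternatives were chosen with earlier results of these data known.

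All 14240 genes that passed edgeR's default filter were fitted together (edgeR 4.0.16 in R 4.3.3, quasi-likelihood test with robust dispersions, TMM factors, group as the only term), with two-sided p-values adjusted by Benjamini-Hochberg over all genes and a threshold of 0.05. Log2 CPM used a prior count of 2. The SE is the log2 fold change divided by the square root of F, and 95% intervals used the fit's degrees of freedom. Alternatives used DESeq2 1.42.0 and limma 3.58.1. The procedure was tested on simulated data. The changes made there were larger than those fitted for these 2 genes, and both groups had the same spread. That test does not show whether changes as small as these would be found. The rule for named genes took both members and the 2 most similar profiles of each, with an identifier printed for the nearest 1 only, because the files name no genes. Poisson intervals cover counting error only.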

Additional observations from a re-analysis of the deposited data

Results flagged for a closer look

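In 6 screens of values for 1 library standing away from its group (both genes and their ratio, in burn and in control), 1 library was picked, and chance picks about 1 in 20 groups. It was control replicate 1, whose log2 ratio of ENSRNOG00000005924 to ENSRNOG00000016326 was 5.75 where the other 3 control libraries had 5.30 to 5.37. Its ENSRNOG00000016326 value, 17.5 CPM, was the lowest of the control libraries. Without control replicate 1 the difference of the log2 ratio between burn and control was -0.13 (two-sided exact permutation test, p = 0.800).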

How the results depend on the processing

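Under 16 alternatives both genes kept a negative log2 fold change and stayed short of the threshold. ENSRNOG00000005924 ranged from -0.65 to -0.33 (adjusted p = 0.0635 to 0.352 over edgeR, DESeq2 and limma) and ENSRNOG00000016326 from -0.40 to -0.09 (adjusted p = 0.236 to 0.812). The log2 ratio of the 2 genes differed between groups by -0.48 to -0.02 over 11 alternatives (exact permutation p = 0.200 to 0.971). The number of genes called moved more. Library size alone gave 894 higher genes in place of 1689, and 29.5% of calls were higher in place of 54.2%. The DESeq2 Wald test gave 2203 lower genes in place of 1426, and an adjusted p under 0.01 gave 412 higher and 267 lower, stricter by construction. Refits that each left out 1 library gave 673 to 2314 higher and 546 to 1929 lower genes. The fewest were called without control replicate 2 and the most without burn replicate 3. Counts moved by over 1.5 times without burn replicate 1 or any control replicate. For the remaining changes the cause was not tested. No paired analysis was possible because the labels tie no paw to an animal. ENSRNOG00000016326 had 180 to 756 counts a library, and thinning every library to the shallowest moved its SE from 0.22 to 0.24.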
